A study of Mus musculus with 6 samples.

Results

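The baseline transcriptome of cultured mouse keratinocytes was read from the wild-type channel of 6 two-color arrays. Each array of the study carried wild-type RNA in one channel and knockout RNA in the other, so the wild-type channels make up 6 of the 12 channels of the series. The wild-type channel was chosen by its label, Cy3 on replicate 1 and Cy5 on replicate 2 of every comparison, and no measured value entered that choice. The channels fall into 3 sets of 2, named after the knockout on the same arrays: WT(Sox4) beside Sox4cKO, WT(Sox11) beside Sox11cKO and WT(dcKO) beside Sox4/11 dcKO cells. All channels are labeled as control keratinocytes of strain 129SvEx:C57BL/6, carry no reported deletion, and came from newborn backskin. The cells were grown first on mitomycin-treated J2 fibroblast feeders and then passaged without them in serum-containing medium. The knockout cells on the same arrays carried floxed Sox4, Sox11 or both, deleted by a Cre that is driven by the Krt14 promoter. By the paper's methods that Cre line was FVB/N, and the floxed stock first crossed to it also lacked Sox12. Whether each array's wild-type RNA was a culture of its own, a pool of pups or from littermates of the knockout is not given in the labels, and p-values below measure the spread between these channels.

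Basal keratinocytes sit on the basement membrane of the epidermis, divide, and are held in their fate by the transcription factor p63, encoded by Trp63. They are known by the keratin pair Krt5 and Krt14. When they stop dividing they move up and switch on spinous genes and then cornified envelope genes, a program that calcium and cell crowding are known to trigger in culture. Of the SoxC genes, the paper reports high Sox4 and Sox11 and negligible Sox12 in embryonic epidermal cells. In postnatal basal cells it found Sox4 reduced and Sox11 undetectable, with Sox11 on again in cultured keratinocytes.

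Levels are log2 intensities after background correction and normalization, and unless stated otherwise the average difference between the Cy5 and Cy3 channels of each probe was removed (dye-adjusted level). A probe counts as detected where the scanner software marked it well above background. Of 55681 probes, between 37.3% and 45.0% were detected in a wild-type channel. The number detected in all 6 channels was 19070 (34.2%), and 26849 (48.2%) were detected in none. Counted by gene with its best probe, 10699 genes (50.1% of those with a symbol) were detected in all 6 channels and 7324 (34.3%) in none. A further 6.78% of probes were detected in a single channel. On an array a level cannot be compared between probes, so the order of genes within the baseline is not given.

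The culture's identity was checked first. Krt5 read 17.94 and 17.46 in WT(Sox4), 16.92 and 17.34 in WT(Sox11), and 17.13 and 17.19 in WT(dcKO), replicates 1 and 2 in that order here and below. Krt14 lay between 16.34 and 16.75, a range of 0.41. Trp63 read 11.43 and 11.3, 10.98 and 10.99, and 11.79 and 11.91. All 3 markers were detected in all channels. For Krt14 the sets overlapped, for Krt5 both WT(Sox4) channels were highest, and for Trp63 each set had its own level, with adjusted p of 0.305 or more in every set contrast by limma. All 20 genes of the basal list were detected in all 6 channels, including the hemidesmosome genes Itga6, Itgb4 and Col17a1 and the laminin genes Lama3 and Lamb3. The basal list held 0 called genes in any set contrast, where 0.0700% to 0.129% of all probes were called. At that share a list of 20 genes would rarely hold a call, so the count does not show that these genes were stable. Within it, Tfap2a, an epidermal transcription factor, had a range of 0.5, while the stem cell keratin Krt15 had one of 4.16 and Tfap2c one of 2.61.

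Spinous and cornified genes were partly on. Of 12 early differentiation genes, 9 were detected in all channels, among them Krt10 (7.07 to 8.08), Ivl (8.04 to 10.34) and Sbsn (12.73 to 15.05). Krt1, the partner of Krt10 and the defining spinous keratin, was near background at 4.57 to 5.26 and was detected in 1 channel. Dsc1, a suprabasal desmocollin, was detected in none. Of 15 late differentiation genes on the array, 9 were detected in all channels, with Sprr1b between 12.57 and 15.1, and Flg2 and Hrnr were detected in none. All 8 keratins of wounded or simple epithelia were detected throughout, among them the wound keratins Krt6a (14.62 to 15.5), Krt16 (14.89 to 16.29) and Krt17 (14.91 to 17.05).

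Of the SoxC genes, Sox4 read 9.81 and 10.08 in WT(Sox4), 10.29 and 9.73 in WT(Sox11), and 9.44 and 9.73 in WT(dcKO). Sox11 read 8.6 and 10.82, 10.31 and 8.57, and 10.29 and 9.82 in the same order, and its largest difference inside a set was nearly as large as its range of 2.25. Sox12 was detected in 0 of the 6 channels. The Sox12 genotype of these cells is not stated, and the floxed founder stock lacked that gene.

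**Figure D1:**
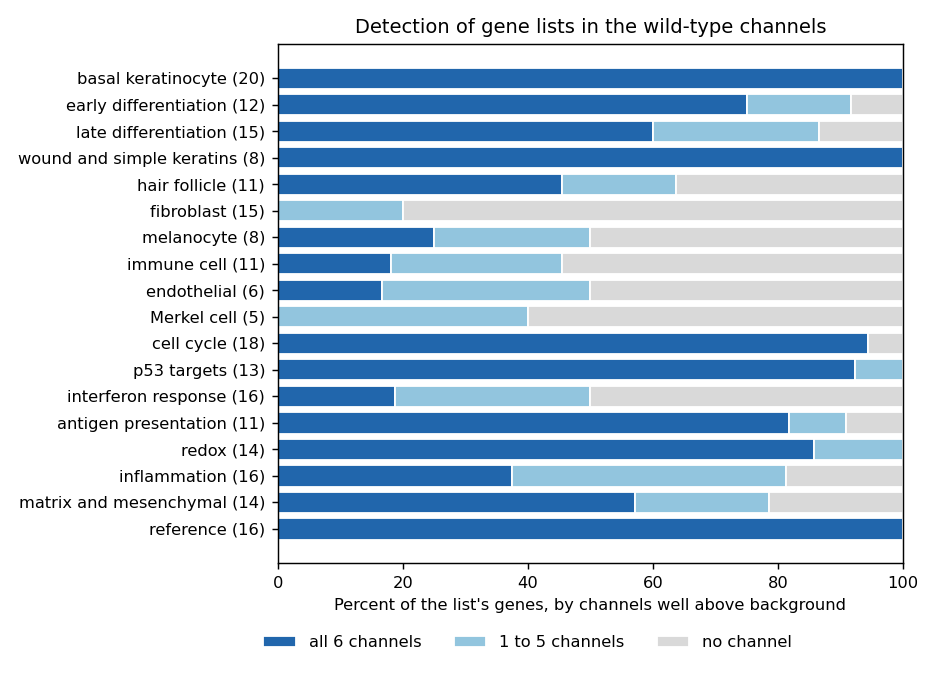
Share of each gene list's members (number on the array in brackets) detected in all 6 wild-type channels, in 1 to 5, or in none. The basal, wound keratin and reference lists were detected throughout, whereas 12 of 15 fibroblast genes were detected in no channel.

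Markers of other cell types were examined as lists. Among 15 fibroblast genes, which would mark feeder cells or dermis, 12 were detected in no channel, including the defining genes Col1a1, Col3a1, Pdgfra, Dcn, Lum and Thy1. The exceptions were Col1a2 (5.44 to 6.15), Col5a2 in WT(Sox4) (5.77 and 6.46) and Vim, described below. The summed linear level of that list was 784 and 779 in WT(Sox4), against 445 to 471 in the other sets. Without Vim it was 444 and 489 against 401 to 437, so Vim carried most of that gap. Of 8 melanocyte genes, Mitf (5.94 to 9.7) and Mlana (5.36 to 7.01) were detected in all channels, Tyr and Pmel in 5 each, and Dct, Tyrp1, Sox10 and Kit in none. Of 11 immune genes, 6 were detected in no channel, among them Cd207, H2-Aa, Adgre1 and Lyz2. Csf1r, the macrophage growth factor receptor gene, was detected in all channels at 8.15 to 9.1, Cd52 in 3 and Ptprc in 1. The probes for Cd3e and Kdr were detected in all channels at almost constant levels, with ranges of 0.2 and 0.38, although Cd3g, Cdh5 and Emcn were detected in none. In bulk RNA, fewer cells of a type and less RNA per cell cannot be told apart.

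Growth genes were on in all cultures. Of 18 genes of DNA replication and mitosis, 17 were detected in all channels, with Mki67 between 11.79 and 12.99 and Cdk1 between 8.88 and 9.6. Aurkb, a mitotic kinase, was detected in none, on its single probe. Of 13 genes of the p53 pathway and cell cycle arrest, 12 were detected throughout, including the inhibitors Cdkn1a (11.6 to 12.44) and Cdkn2a (10.46 to 12.15). Of 16 interferon-response genes, 3 were detected in all channels, 5 in some and 8 in none, among the last Ifit1 and Irf7. This share in none was higher than the 34.3% of all genes with a symbol, counted by their best probe. Class I presentation genes were on, with H2-D1 between 10.9 and 11.93 and H2-T23 between 10.03 and 12.28. None of these 4 lists held a called gene, which for lists this short is no sign of stability, with at most 0.129% of all probes called per contrast.

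The remaining lists were mixed. Of 14 matrix and mesenchymal genes, 8 were detected in all channels and none was called, which says as little for a list of this size. Cdh2, which encodes N-cadherin, read 10.83 and 12.89 in WT(Sox4), 6.91 and 6.1 in WT(Sox11), and 10.92 and 9.68 in WT(dcKO) (adjusted p = 0.155 for WT(Sox11) by limma). Twist2, a mesenchymal transcription factor, was not detected in WT(Sox4) and read 6.58 and 5.85 in WT(Sox11) and 8.56 and 9.39 in WT(dcKO) (adjusted p = 0.0537 for WT(dcKO)). Of 11 hair follicle genes 5 were detected throughout and 4 nowhere. Of 5 Merkel cell genes none was detected throughout, and of 6 endothelial genes 1, Kdr. The median difference of the basal list was 0.08 in WT(Sox4), -0.06 in WT(Sox11) and -0.13 in WT(dcKO), and that of the wound keratins 0.32, 0.48 and -0.68, against -0.01, -0.01 and 0.01 over all probes. Inflammation genes lay at -0.95, -0.08 and 0.49 and late differentiation genes at 0.11, 0.67 and -0.57.

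The level of agreement between wild-type channels was examined next. Over the probes detected in all channels, the median range across channels was 0.711 log2 units, 72.9% of probes stayed within 1 unit, which is a 2-fold range, and 1.79% (341 probes) spanned more than 3 units. Reference genes ranged less, with a median of 0.46 over 16 genes, 0.35 for Ywhaz and 0.38 for Eef1a1, but 1.54 for B2m and 1.45 for Tfrc. Spots within an array were compared as well. For 215 probes printed 10 times per array, 2 spots in the same channel differed by a median of 0.108 to 0.163 log2 units, and single spots of 2 wild-type channels with the same dye differed by 0.298 to 0.429, which includes labeling and hybridization as well as the RNA. The 2 channels of a set differed by a median of 0.214 to 0.255 after dye adjustment, and channels of different sets by 0.258 to 0.373. Without dye adjustment the WT(Sox11) pair differed by 0.39, the other same-set pairs by 0.277 and 0.247, and different sets by 0.275 to 0.423, so that order held only after the adjustment, which by its construction narrows the same-set pairs. After adjustment the pair of WT(dcKO) was the closest and WT(Sox11) replicate 2 with WT(dcKO) replicate 2 the most distant. In 45.5% of the probes the largest difference inside a set exceeded the largest difference between set means. The first is between single dye-adjusted channels and the second between means of 2 channels. Their spreads are unlike by construction, so this share does not weigh variation inside sets against variation between them.

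**Figure D2:**
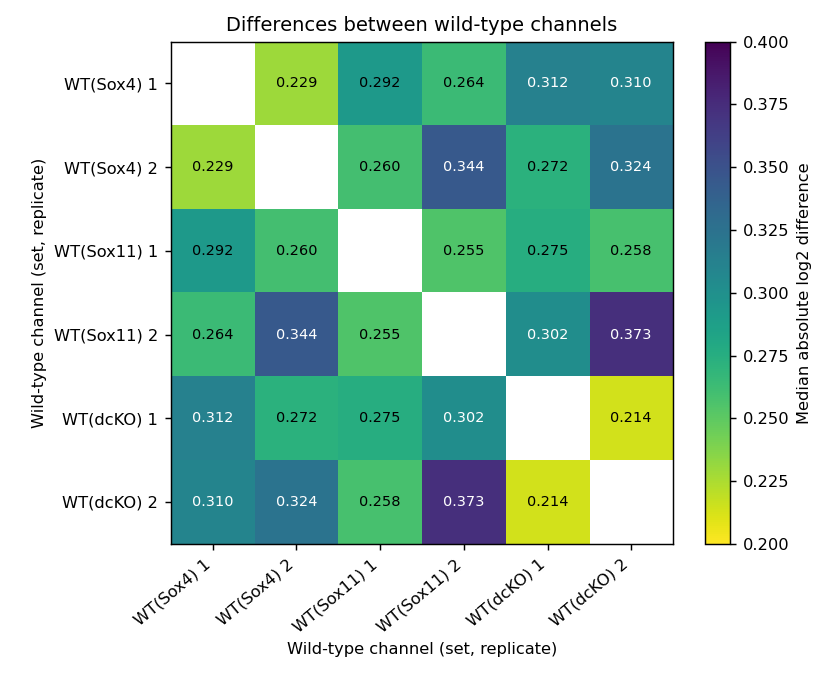
Median absolute difference of the dye-adjusted log2 level between each pair of wild-type channels, over 19070 probes detected in all 6. Pairs of the same set (0.229, 0.255 and 0.214) lie below every pair of different sets on this adjusted scale; without the adjustment the WT(Sox4) and WT(Sox11) pairs, at 0.277 and 0.39, do not.

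To find the genes that varied between wild-type sets, each set was compared with the mean of the other 2. A probe was called at a Benjamini-Hochberg adjusted p below 0.05 by limma and a log2 difference above 1.5. In WT(Sox4) 22 probes were higher (0.0395% of all probes) and 17 lower (0.0305%). In WT(Sox11) 39 were higher (0.0700%) and 33 lower (0.0593%), and in WT(dcKO) 29 were higher (0.0521%) and 23 lower (0.0413%). Over both directions these were 0.0700%, 0.129% and 0.0934% of the probes, and a test of any difference between the sets called 96 (0.172%). The set contrasts called 118 probes in at least 1 contrast. These held 62 of the 18723 named autosomal genes on the array, and the 96 probes of the any-difference test held 52. Some genes were called in more than 1 contrast because the contrasts share all 6 channels. The 30 differences chosen for naming (up to 5 per set and direction, detected on the higher side) kept their direction in all alternatives, but the calls did not. With a background offset of 50 in place of 16 the counts were 0, 1 (Serpina3i) and 0, with the scanner's processed signals 0 in all 3, without the between-array step 0, 12 and 0, and without either WT(dcKO) array at most 13 in any contrast. Levels by channel are therefore given beside the tests.

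Sex-linked genes separated the sets. Eif2s3y, on the Y chromosome, read 9.73 and 10.29 in WT(Sox11) and 4.35 to 4.8 elsewhere, and Ddx3y read 7.71 and 7.65 against 4.54 to 4.81. Xist, which is transcribed from the inactive X chromosome, read 4.79 and 4.51 in WT(Sox11) and 8.3 to 9.19 in the other channels. Set and sex of the donor pups cannot be told apart for genes that differed in WT(Sox11), and only autosomal genes are described below.

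The largest autosomal differences were in WT(Sox11), in the secreted protease inhibitor genes Serpina3f and Serpina3i and in Plac8, which is described further below. Serpina3f, an acute-phase serine protease inhibitor, read 15.5 and 15.31 in WT(Sox4), 14.7 and 13.79 in WT(dcKO), but 6.35 and 7.45 in WT(Sox11), with no overlap. Its difference in WT(Sox11) was -7.93 ± 0.40 (SE; limma adjusted p = 0.00684), a 243-fold lower level. Serpina3i, a paralog separated from it by 3 genes on chromosome 12, read 12.7 and 12.67, then 11.6 and 11.2, and 5.84 and 6.26 in WT(Sox11). Its difference there was -5.99 ± 0.21 (adjusted p = 0.00322 by limma). Both genes also passed in WT(Sox4), at 4.83 and 3.96, where the low WT(Sox11) channels enter the mean they were compared with. Paralogs of this family are similar in sequence, and probes of one may take up RNA of another. The second probe of Serpina3f differed by -3.31 and that of Serpina3i by -0.87 in WT(Sox11).

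As these neighbors moved together, the 250 bases upstream of their RefSeq start sites are shown (GRCm38.p6, plus strand, 5′ to 3′, Serpina3f at chr12:104214294-104214543 and Serpina3i at chr12:104262872-104263121). Capitals mark TTCNNNGAA, a palindrome, and TATAAA, the TATA box letters, both searched on both strands.
Serpina3f: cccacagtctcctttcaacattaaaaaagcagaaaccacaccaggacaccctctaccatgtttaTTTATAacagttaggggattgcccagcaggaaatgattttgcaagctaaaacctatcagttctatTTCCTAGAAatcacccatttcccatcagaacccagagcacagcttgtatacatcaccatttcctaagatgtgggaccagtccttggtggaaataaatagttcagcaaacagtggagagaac
Serpina3i: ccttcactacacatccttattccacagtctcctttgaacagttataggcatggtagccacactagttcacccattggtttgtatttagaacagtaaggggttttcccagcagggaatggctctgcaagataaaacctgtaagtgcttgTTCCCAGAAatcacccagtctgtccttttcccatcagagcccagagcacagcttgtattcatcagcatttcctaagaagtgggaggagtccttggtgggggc
The upstream sequence of Serpina3f is that of the first of 2 annotated starts. TTCNNNGAA starts 121 bases before the start of Serpina3f and 102 bases before that of Serpina3i. Of 32851 such windows, 7.02% hold this motif and 12.4% hold TATAAA, which is found here on the minus strand of Serpina3f alone. The windows shown were identical at 82.2% of 219 aligned positions, with positions opposite a gap left out. The window of the second start of Serpina3f was identical to that of Serpina3i at 55.9% of 222. A match to these letters is a description of the sequence and was not tested as a site.

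Other genes low in WT(Sox11) were of several kinds. Plac8, a small cysteine-rich protein, read 7.5 and 7.16 in WT(Sox11), 13.05 and 12.5 in WT(Sox4), and 14.08 and 14.98 in WT(dcKO). It differed by -6.32 ± 0.32 in WT(Sox11) (SE; limma adjusted p = 0.00684), was also called higher in WT(dcKO), and its second probe moved the same way (-4.13). Map2, which encodes a microtubule-associated protein, read 5.65 and 5.73 in WT(Sox11), 9.29 and 9.21 in WT(Sox4), and 7.14 in both WT(dcKO) channels, so each set had its own level. Fbxw10, an F-box protein gene, read 5.18 and 4.94 in WT(Sox11), where it was not detected, 7.36 and 7.68 in WT(Sox4), and 6.99 and 6.91 in WT(dcKO). It was at least 4.49-fold lower in WT(Sox11) than in the other sets (limma adjusted p = 0.0295).

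Genes higher in WT(Sox11) included matrix, transcription and transport genes. Spon2, a secreted matrix protein, read 11.95 and 11.72 in WT(Sox11) and 5.92 to 6.87 in the other 4 channels, a 41.7-fold difference (5.38 ± 0.25, SE; limma adjusted p = 0.00615). Pitx1, a hindlimb homeobox factor, read 10.95 and 12.17 against 5.61 to 7.83. Sncg, a synuclein, read 10.39 and 10.94 against 5.65 to 6.21. Fxyd2, a subunit of the sodium pump, read 10.61 and 11.33 against 6.06 to 7.24, and its second probe differed by 4.24. Krt90, a type II keratin, read 9.49 and 8.85 in WT(Sox11), 5.68 and 6.33 in WT(Sox4), and was not detected in WT(dcKO). None of these sets of channels overlapped. Adjusted p for Pitx1, Sncg, Fxyd2 and Krt90 ran from 0.008 to 0.0326. The adjacent genes Ucp2 and Ucp3, mitochondrial carriers with no gene between them, were detected in WT(Sox11) alone, at 7.46 and 8.01 and at 7.43 and 7.7. These neighbors were picked after their values were seen, and the second probe of Ucp3 differed by 0.03.

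WT(Sox4) differed in genes of other kinds. Vim, the intermediate filament gene of mesenchymal cells and of many cultured epithelial cells, read 8.41 and 8.18 in WT(Sox4) and 5.01 to 5.44 elsewhere, a difference of 3.13 ± 0.18 (SE; limma adjusted p = 0.0255). It was the only fibroblast-list gene called, and Col1a1 and Col3a1 stayed undetected in these channels. The part of other cells in this difference was not tested. Nr1h5, a nuclear receptor gene, read 8.89 and 8.64 against 4.51 to 5.02, was detected in no other channel, and was at least 13.1-fold higher (limma adjusted p = 0.0244). Eaf2, an elongation-factor partner, read 12.75 and 12.83 against 9.63 to 10.28, although its second probe differed by 0.06.

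Snhg12, a host transcript of small nucleolar RNAs, was detected in the 4 other channels at 8.33 to 10.04 and not in WT(Sox4), at 4.68 and 4.84. It was at least 17.2-fold lower (limma adjusted p = 0.0255). The probe for Olfr224, an olfactory receptor, read 4.95 and 4.93 in WT(Sox4), where it was not detected, and 7.6 to 8.8 elsewhere, and was at least 8.29-fold lower (adjusted p = 0.0363). Of the 16 inflammation genes, 2 were called lower in WT(Sox4), where 0.0305% of all probes were. Without the dye term neither passed in that set (limma adjusted p = 0.0881 for S100a8 and 0.0707 for Ccl2). S100a8, an alarmin of stressed keratinocytes, read 8.42 and 7.88 in WT(Sox4) against 11.13 to 11.75, a difference of -3.23 ± 0.22 (SE; limma adjusted p = 0.0323). Ccl2, a monocyte chemokine, read 5.54 and 5.68 in WT(Sox4), 7.43 and 7.08 in WT(dcKO), and 9.36 and 9.57 in WT(Sox11), and passed in both WT(Sox4) and WT(Sox11). S100a9, the partner of S100a8, ranged from 8.61 to 12.35 and did not pass (adjusted p = 0.489 in WT(Sox4)).

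Both higher and lower genes were called in WT(dcKO). Gpx2, an epithelial glutathione peroxidase, read 7.84 and 7.64 in WT(dcKO) against 12.66 to 13.19 in the other channels, a 37.2-fold lower level (-5.22 ± 0.16, SE; limma adjusted p = 0.00562). Because the contrasts share their channels, it was also called higher in WT(Sox4) and in WT(Sox11), at 2.29 and 2.93. Among 14 redox genes, Prdx4, on the X chromosome, was also called, as lower in WT(Sox4). Gclc, the rate-limiting subunit of glutathione synthesis, read 9.83 and 10.31 in WT(dcKO) and 10.82 to 12.16 elsewhere and did not pass (adjusted p = 0.173). Nqo1, a classic NRF2 target, read 7.12 and 7.08 in WT(dcKO) and 4.61 to 6.45 elsewhere (adjusted p = 0.14). The list's members thus lay on both sides.

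Other genes low in WT(dcKO) were Hspb8, a small heat shock protein (5.84 and 5.85 against 9.83 to 10.95), Mdfic, a regulator of myogenic factors (5.6 and 5.34 against 8.55 to 10.04), and the netrin receptor gene Unc5b (5.4 and 5.08 against 7.67 to 9.88). Cdsn, which encodes corneodesmosin of the cornified layer, read 9.79 and 9.66 against 12 to 13.35. It was the only gene of 15 in the late differentiation list to be called in a set contrast (-2.99 ± 0.25, SE; limma adjusted p = 0.0451). In WT(dcKO) 0.0413% of all probes were called lower, and without the dye term Cdsn did not pass (limma adjusted p = 0.291). The keratin Krt17 was lower in WT(dcKO) in both channels, at 15.25 and 14.91 against 16.39 to 17.05, and did not pass (adjusted p = 0.154).

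Ror2, Fam189a1, Snhg18 and Hoxb13 were detected in WT(dcKO) alone. Ror2, a Wnt5a receptor, read 8.19 and 8.41 against 4.61 to 4.91 and was at least 9.69-fold higher than in the other sets (limma adjusted p = 0.00867). Fam189a1 read 9.09 and 8.9 against 4.48 to 4.88, and Snhg18, another host transcript of a small nucleolar RNA, 8.02 and 8.24 against 4.53 to 4.69. They were at least 15.5-fold and 8.61-fold higher (adjusted p = 0.00668 and 0.00768). Hoxb13, a posterior homeobox gene, read 8.04 in both channels against 4.67 to 4.81 (adjusted p = 0.00768), and is named here after its values were seen. Clec2f, a C-type lectin, read 9.51 and 10.07 against 4.79 to 5.7, was detected in 1 channel outside WT(dcKO), and its second probe differed by 3.97.

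**Figure D3:**
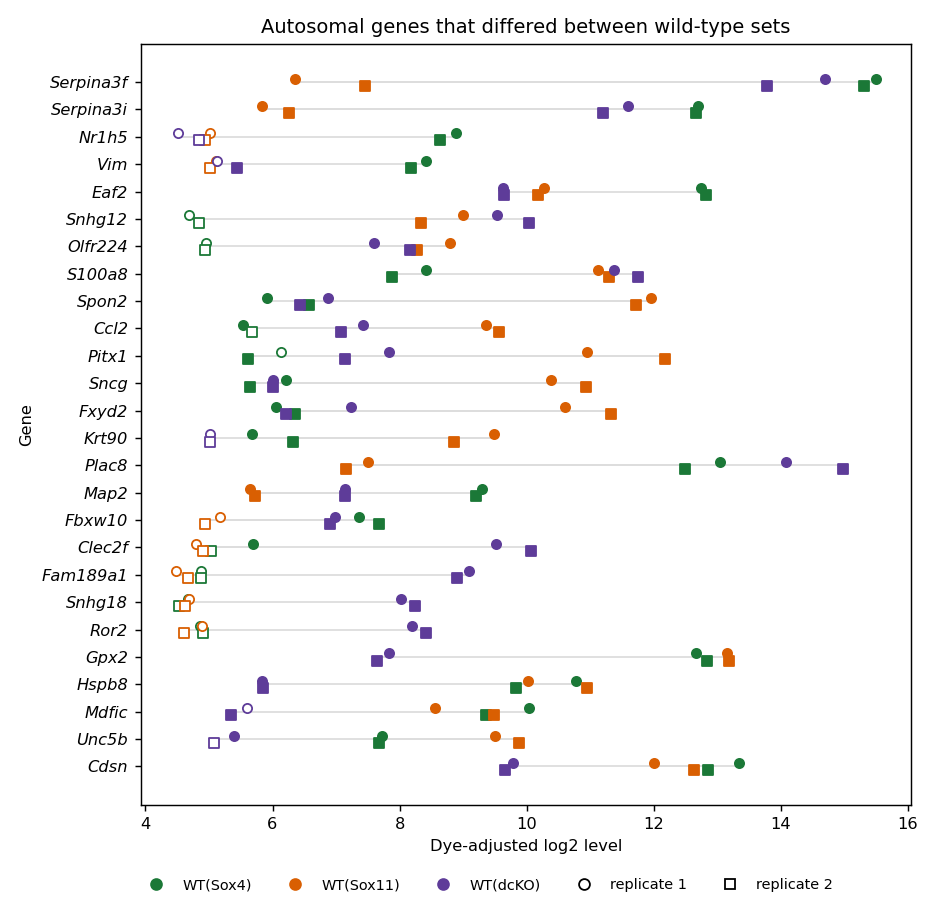
Dye-adjusted log2 level of the autosomal genes with the largest called differences between wild-type sets, in each of the 6 channels. Open symbols were not well above background. For Gpx2 and Serpina3f the set that stood apart lay more than 4 log2 units from every other channel.

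The knockout channels of the same arrays offered a second reading of each set, from other cells but from the same spots and the same normalization. The same set contrast was taken between knockout channels, which also differ in genotype, for the called autosomal genes whose brightest probe was the called one. This left out 3 of 25 genes in WT(Sox4), 5 of 35 in WT(Sox11) and 2 of 29 in WT(dcKO). In WT(Sox4), 12 of 22 genes differed by over 1.5 in the same direction in the knockout channels, 9 by less in that direction, and 1 in the opposite direction. In WT(Sox11) these counts were 19, 8 and 3 of 30 genes. In WT(dcKO) they were 7, 17 and 3 of 27. Over all probes, at most 1.03% differed by more than 1.5 between knockout channels in any of the 3 contrasts. Genes with a difference of similar size on both sides included Spon2 (5.38 in wild type and 5.79 in knockout), Nr1h5 (3.93 and 4.89), Snhg12 (-4.46 and -3.79) and Serpina3f in WT(Sox4) (4.83 and 5.6). The genes furthest lower in WT(Sox11) kept their direction but were less far apart in the knockout channels. These were Serpina3f (-7.93 and -3.97), Plac8 (-6.32 and -3.25) and Serpina3i (-5.99 and -2.39). Genes set apart in the wild-type channels but little in the knockout ones were Gpx2 (-5.22 and -0.54), Clec2f (4.69 and 0.48), Ror2 (3.48 and 0.57) and Hoxb13 (3.3 and 0.5), all in WT(dcKO). Krt90 lay on opposite sides, at 3.66 in wild type and -1.77 in knockout. No test of these differences between the sides was made.

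**Figure D4:**
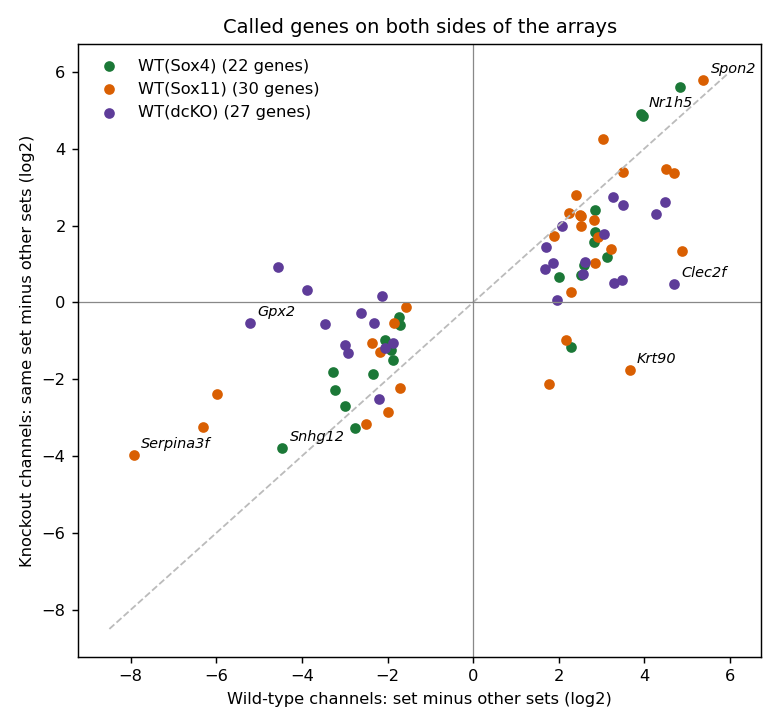
Set contrast of the called autosomal genes whose brightest probe was called (22, 30 and 27 genes) in the wild-type channels (horizontal axis) and in the knockout channels of the same arrays (vertical axis), in log2 units. The dashed line marks equal differences, and the WT(dcKO) genes lie closer to the horizontal zero line than those of the other sets, with medians of 1.03 against 1.7 and 2.18 in the called direction.

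Differences inside a set were as large as those between sets for the genes of differentiation and inflammation. Here the levels are normalized but not dye-adjusted, since the adjustment spreads a deviation of one channel over the others, and a dye effect is not separated from a difference between replicates. WT(Sox11) replicate 2 stood apart. Crnn, a cornified envelope gene, read 11.91 in that channel and 5.72 to 6.05 in the other 5. Tchh, the trichohyalin gene, read 11.69 there against 5.45 to 7.1. Prr9, of the epidermal differentiation complex, read 15.27 against 7.04 to 10.06, and Sprr2i 12.77 against 6.77 to 9.43. Calm4, a calcium-binding protein of differentiating keratinocytes, read 12.22 in WT(Sox11) replicate 2, 9.25 in WT(Sox4) replicate 1, and 5.74 to 7.78 in the rest. In the opposite direction Wfdc2, a secreted protease inhibitor, read 7.33 in WT(Sox11) replicate 2 and 12.15 to 14.14 in the other channels.

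Inflammatory genes had the reverse order between the WT(Sox11) replicates. Cxcl1, a neutrophil chemokine, read 13.08 in replicate 1 and 9.69 in replicate 2. Csf3, which encodes G-CSF, read 9.22 and 5.38, and Il1a read 9.84 and 6.41. Of the 6 inflammation genes detected in all channels, 5 were higher in replicate 1, with a median of 3.41. In WT(Sox4) 3 were higher and 3 lower, and in WT(dcKO) 5 were higher, with a median of 0.85. Of the 9 late differentiation genes detected in all channels, 7 were lower in WT(Sox11) replicate 1 than in replicate 2, with a median of -1.79, and 8 were higher in WT(Sox4) replicate 1 than in replicate 2, with a median of 1.01. In WT(dcKO) 8 of the 9 were lower in replicate 1, with a median of -0.15. Over all 19055 probes with a level in every channel the medians were 0.01, 0.01 and -0.03 in WT(Sox4), WT(Sox11) and WT(dcKO). Sox11 itself read 10.39 and 8.49 in WT(Sox11), 8.68 and 10.74 in WT(Sox4), and 10.37 and 9.74 in WT(dcKO).

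Cell cycle genes also differed between replicates. All 17 detected members were higher in replicate 1 than in replicate 2 of both WT(Sox4) and WT(Sox11), with medians of 0.69 and 0.94, while in WT(dcKO) 9 were higher and 8 lower. Basal genes were lower in replicate 1 for 12, 14 and 13 of 20 members in WT(Sox4), WT(Sox11) and WT(dcKO), with medians of -0.24, -0.21 and -0.35. After dye adjustment the basal medians were 0.03, 0.02 and -0.03, and the cell cycle medians 0.19, 0.42 and -0.54, in the same order. Replicate number and dye are the same here, so a dye effect cannot be told apart from a replicate difference. Of the differentiation and inflammation genes named for their replicate differences, none passed a set contrast. A large replicate difference raises the error of that test, so this follows from how they were chosen. WT(Sox11) calls were also computed without replicate 2: Serpina3f was then at -8.75 and Spon2 at 5.55, and 42 of the 72 called probes were called again.

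**Figure D5:**
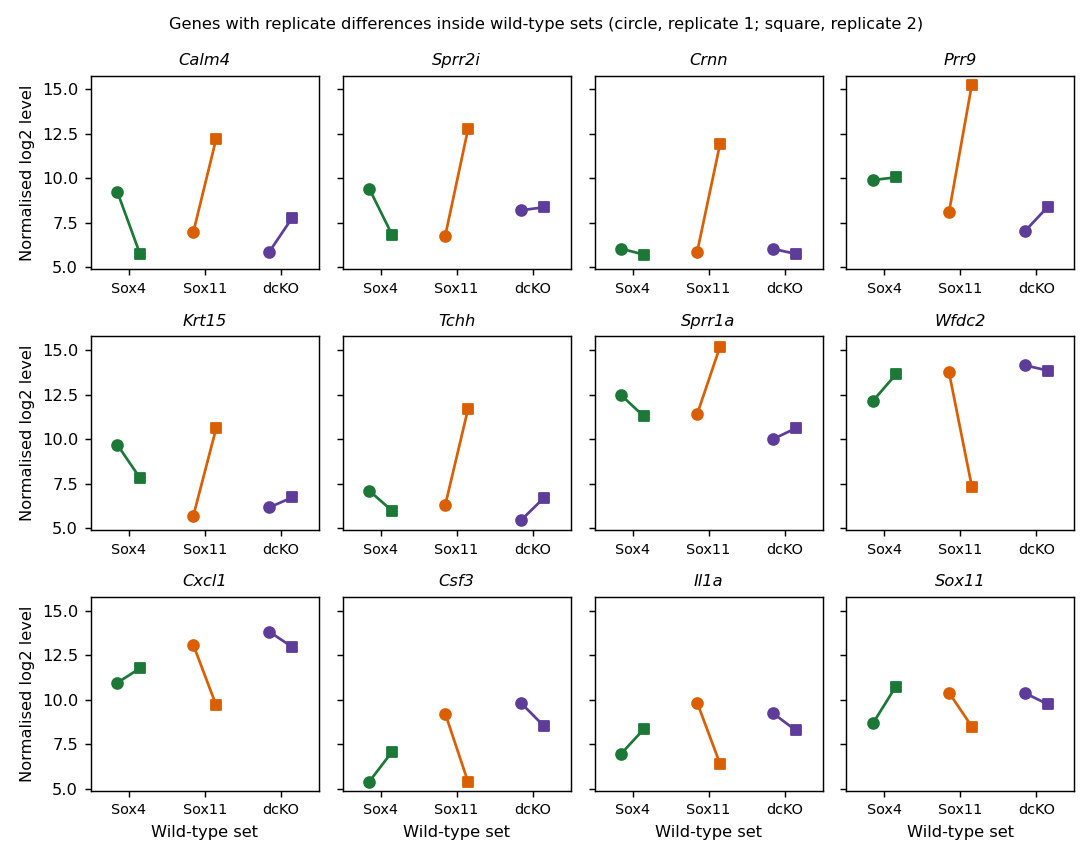
Normalized log2 level, not dye-adjusted, of 12 genes in the replicates of each wild-type set. Crnn, Prr9 and Tchh were highest in WT(Sox11) replicate 2, where Wfdc2, Cxcl1 and Sox11 were lowest.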

How the data were processed

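Keratinocyte RNA was hybridised to 6 two-color arrays, and only the wild-type channels were described, as 3 sets of 2. Each deposited array file gives linear spot intensity from the authors' scan, quantified in Feature Extraction (Agilent, version 11.0.1.1), and the same software's marks for spots well above background or outlying. The deposited table of log2 ratios was not used because it holds no wild-type level. The limma package (3.58.1, under R 4.3.3) was used throughout. Median signals of the spots were corrected for median local background by normexp with an offset of 16, normalized by loess within arrays and by quantiles of the average intensity between arrays, and split into channels. Of 62976 spots, 3671 control spots were left out and 194 to 288 outlier spots per array set to missing. Spots of a probe were averaged, which left 55681 probes. Where several probes match a gene, the brightest is given.

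A limma model with terms for the sets and the dye was fitted to the wild-type channels, as the study's methods also removed a dye effect. It left 2 residual degrees of freedom, and the prior added 3.7. Calls needed an adjusted p below 0.05 and a log2 difference above 1.5. A probe not well above background in a whole set has only a bound. It was taken as the mean of, per channel, the higher of its own level and the lowest level marked well above background. Of 29786 probes with a RefSeq accession, 28331 received a symbol (21368 genes) from a GRCm38.p6 table, which served only for names, chromosomes and gene order, as the array was designed on another build. Genes were named by a rule: the markers and SoxC genes, up to 5 called autosomal genes per set and direction, called, most and least variable members of each list, and the 5 genes with the largest residual SD. Exceptions are stated. The gene sets, lists and tests were chosen with earlier results of these data known. On simulated data for WT(Sox11) over 55584 probes, 98% of probes changed by 2 log2 units were recovered. Of those changed by 3 log2 units 99% were recovered, with 9 false calls. These shares describe the simulated data only and give no rate of missed or false calls in the measured data. There the called probes fell to 0, 1 and 0 in WT(Sox4), WT(Sox11) and WT(dcKO) with an offset of 50. All arrays came from 1 slide and 1 scan. The number of arrays limits the precision. Alternatives were another offset, other normalizations, the scanner's processed signals, no dye term, a filter, a trended prior and leaving out each array. Mean spot signals were planned but not used here.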

Additional observations from a re-analysis of the deposited data

Results flagged for a closer look

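Each measure named for the 6 wild-type channels was examined for a single channel far from the rest, and 6 of 85 were, where chance flags about 1 in 20. Many of the 85 were named for their large spread, Wfdc2, Prr9, Crnn, Tchh and Sprr2d among them, so that rate does not apply to them. On the normalized scale without dye adjustment, WT(Sox11) replicate 2 stood apart for 5 of them. It was high for Crnn at 11.91 (nearest channel 6.05), for Tchh at 11.69 (nearest 7.1), for Prr9 at 15.27 (nearest 10.06) and for Tap1, a peptide transporter of class I presentation, at 6.37 (nearest 5.94). It was low for Wfdc2 at 7.33 (nearest 12.15). Sprr2d, a cornified envelope gene, was low in WT(Sox11) replicate 1 at 7.78 (nearest 11.4).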

How the results depend on the processing

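All 30 named differences between sets kept their direction in all alternatives run, and their calls did not. With a normexp offset of 50 the counts of called probes were 0, 1 and 0 in WT(Sox4), WT(Sox11) and WT(dcKO) and 0 for any difference between sets. Without the between-array step they were 0, 12, 0 and 0, and with the scanner's processed signals 0, 0, 0 and 0, against 39, 72, 52 and 96 in the main analysis. Beside these counts of 0, limma gave 2426 to 4623 probes per contrast at an unadjusted p below 0.05 in the same settings, against 2382 higher and 2120 lower in WT(Sox4) in the main analysis. Chance alone would put a share of about 0.05 of the 55681 probes below that p. Without the between-array step the counts were 2426, 2613 and 2856. They are therefore no measure of missed differences. A trended prior gave 59 in WT(Sox4) and 84 in WT(dcKO). Median centring, quantile normalization of the wild-type channels alone and the filter on dim probes kept each count within 1.5 times. Leaving out 1 array gave 0 to 290 called probes in WT(Sox4), 9 to 495 in WT(Sox11), 0 to 443 in WT(dcKO) and 7 to 758 for any difference. The counts fell to 0, 13 and 0 without WT(dcKO) replicate 1 and to 0, 9 and 0 without replicate 2, and were highest without WT(Sox11) replicate 1. With a set left at 1 channel, that channel is assumed to vary like the others. The cause of these changes was not tested. Median centring moved 9 of 60 list medians, and turned that of the basal list in WT(dcKO) from -0.13 to 0.15.

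The dye term is identical to a replicate block. With no replicate block the counts were 51, 87, 72 and 123 in the same order. Of the 30 named differences, 24 were still called and 6 were not. Those 6 were Cdsn and Mdfic in WT(dcKO), Pitx1 and Fbxw10 in WT(Sox11), and S100a8 and Ccl2 in WT(Sox4). Their limma adjusted p ran from 0.0578 to 0.291. Same-numbered channels deviated from their set means with correlations across probes of 0.0333, -0.113 and 0.249. These values cannot show whether such samples share more than a number and a dye, and that was not tested. The detection count was 25340 by the scanner's positive-and-significant mark, against 19070. Mean spot signals were not run. Probes near background are limited by it, and a difference there is a lower bound.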
